A study of Homo sapiens with 12 samples.

Results

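The translation initiation and elongation factors are the proteins that load ribosomes onto messenger RNAs, find the start codon and drive the growing peptide chain. The family was taken from the gene symbols of the count table: 78 symbols began with EIF1 to EIF6, EEF1 or EEF2, and 13 were dropped (4 EIF2AK kinase genes, 6 symbols with a hyphen, 2 pseudogenes and 1 gene linked to the Y chromosome), which left 65 members of 28278 listed genes. The rule itself uses symbols and no expression value. The libraries were made from motor neurons differentiated from a human embryonic stem cell line, WA09-Islet1-GFP, in which green fluorescent protein (GFP) is made when the motor neuron transcription factor Islet1 is expressed. All 4 groups came from this 1 line, labelled wild-type. Cultures received the organochlorine pesticide cis-chlordane in DMSO, or the same volume of DMSO alone, for 16 hours, and were then sorted on GFP signal into GFP-positive and GFP-negative cells. There were 3 libraries each of control GFP-positive, treated GFP-positive, control GFP-negative and treated GFP-negative cells, 12 in all. The labels give the cis-chlordane concentration as 10 µM and the study's methods give a higher one for these cells, so the dose is uncertain. The title of each treated library opens with the word untreated too, and the treatment was read from the treatment label instead. The study counts each independent thaw of stored cells as a replicate. GFP-positive and GFP-negative libraries of 1 number were taken as sorts of the same culture, since they deviated together. In treated cells replicates 1 and 2 were not clearly told apart in this way.

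Initiation starts with eIF2, a trimer that carries the initiator transfer RNA to the small ribosomal subunit, together with eIF1, eIF1A, eIF3 and eIF5, while the eIF4 factors bind the cap of the messenger RNA, unwind its leader and recruit the subunit. Cells regulate this machinery at a pair of well known points: phosphorylated eIF2 blocks its exchange factor eIF2B during stress such as protein misfolding in the endoplasmic reticulum, and the eIF4E-binding proteins hold the cap-binding protein eIF4E away from eIF4G when mTOR signalling is low. During elongation, eEF1A delivers aminoacyl transfer RNAs, eEF2 moves the ribosome along, and eIF5A helps at stalling sequences; motor neurons and muscle are known for a switch from EEF1A1 to its paralogue EEF1A2 as they mature.

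The count tables held 23414935 to 38347050 counts per library (median 31553596), and 5688 of the 28278 genes had no counts in any library. ISL1, the gene behind the reporter, was higher in control GFP-positive than in control GFP-negative cells, with a log2 fold change of 4.57 ± 0.19 (SE, edgeR's quasi-likelihood test, adjusted p = 8.70e-07), in the direction the sort implies. In treated cells ISL1 was lower than in controls of both fractions, by log2 fold changes of -2.38 ± 0.20 (SE, adjusted p = 6.02e-12) in GFP-positive and -2.23 ± 0.36 (SE, adjusted p = 0.00148) in GFP-negative cells. Summed motor neuron markers (6 genes) ran from 1710 to 1913 CPM (counts scaled to the size of each library) in control GFP-positive, 506 to 697 CPM in treated GFP-positive, 291 to 336 CPM in control GFP-negative and 101 to 135 CPM in treated GFP-negative libraries, with all 6 lower after treatment in GFP-positive cells. Summed cycling-cell markers (4 genes) ran from 55.4 to 84.9, 29.9 to 33.9, 426 to 554 and 138 to 182 CPM in the same order, and 5 mesenchymal markers from 79.6 to 109, 16.2 to 27.6, 545 to 642 and 191 to 413 CPM, nearly all of it COL1A1. The 5 neuron markers summed to 9575 to 13229, 4340 to 5639, 5664 to 6364 and 3228 to 4099 CPM, with 3 lower and 1, SNAP25, higher after treatment in GFP-positive cells, and the 5 neural progenitor markers to 1426 to 1717, 978 to 1165, 2159 to 3613 and 1133 to 1522 CPM, with 1 lower and 2, PAX6 and OLIG2, higher. The 3 pluripotency markers summed to 148 to 163, 44.3 to 53.9, 163 to 201 and 68.1 to 99.2 CPM, nearly all of it LIN28A, while POU5F1 had no counts. The part of these shifts in the results on translation factors was not tested, and in such bulk libraries fewer cells of a type cannot be told apart from less RNA per cell.

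More translation factors were higher than lower after cis-chlordane, in both sort fractions. A gene was called changed when edgeR's quasi-likelihood test gave a Benjamini-Hochberg adjusted p under 0.05 over all genes tested, and a DEG (differentially expressed gene) when the fold change was also at least 2. Of the 65 members, 60 had enough counts for the test in every comparison. In GFP-positive cells 28 of the 60 (46.7%) were higher in treated than control libraries, where 26.5 percent of all 15333 tested genes were called higher, and 4 (6.67%) were lower, where 24.4 percent of all tested genes were. The 14 DEGs among the members were all higher (23.3%, against 12.8 percent of all tested genes), and 0 were DEGs in the lower direction (against 11.2 percent). DESeq2 gave 28 higher, 5 lower, 13 higher DEGs and 0 lower DEGs. By edgeR 35 of the 60 members had an unadjusted p under 0.05, as did 8681 of all 15333 tested genes. The median log2 fold change was 0.42 over the 60 members and 0.03 over all tested genes.

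In GFP-negative cells, 18 of the 60 (30.0%) were higher after treatment and 1 was lower, where 15.3 percent and 16.2 percent of 15513 tested genes were called higher and lower. There were 11 higher DEGs (18.3%, against 8.59 percent of all tested genes) and 0 lower ones (against 9.75 percent) by edgeR and by DESeq2. By edgeR 28 of the 60 members had an unadjusted p under 0.05, as did 6619 of all 15513 tested genes. The median log2 fold change was 0.38 over the members and -0.01 over all tested genes. Both fractions shared 17 higher members (28.3%) and 1 lower member (1.67%), EEF1AKNMT, a methyltransferase of eEF1A. Over the 14855 genes tested in both fractions, 12.5% were called higher in both and 12.6% lower in both. The fractions share no library, but their same-numbered libraries were taken as sorts of the same cultures. The plot of log2 fold changes by factor shows every tested member in both fractions.

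**Figure D1:**
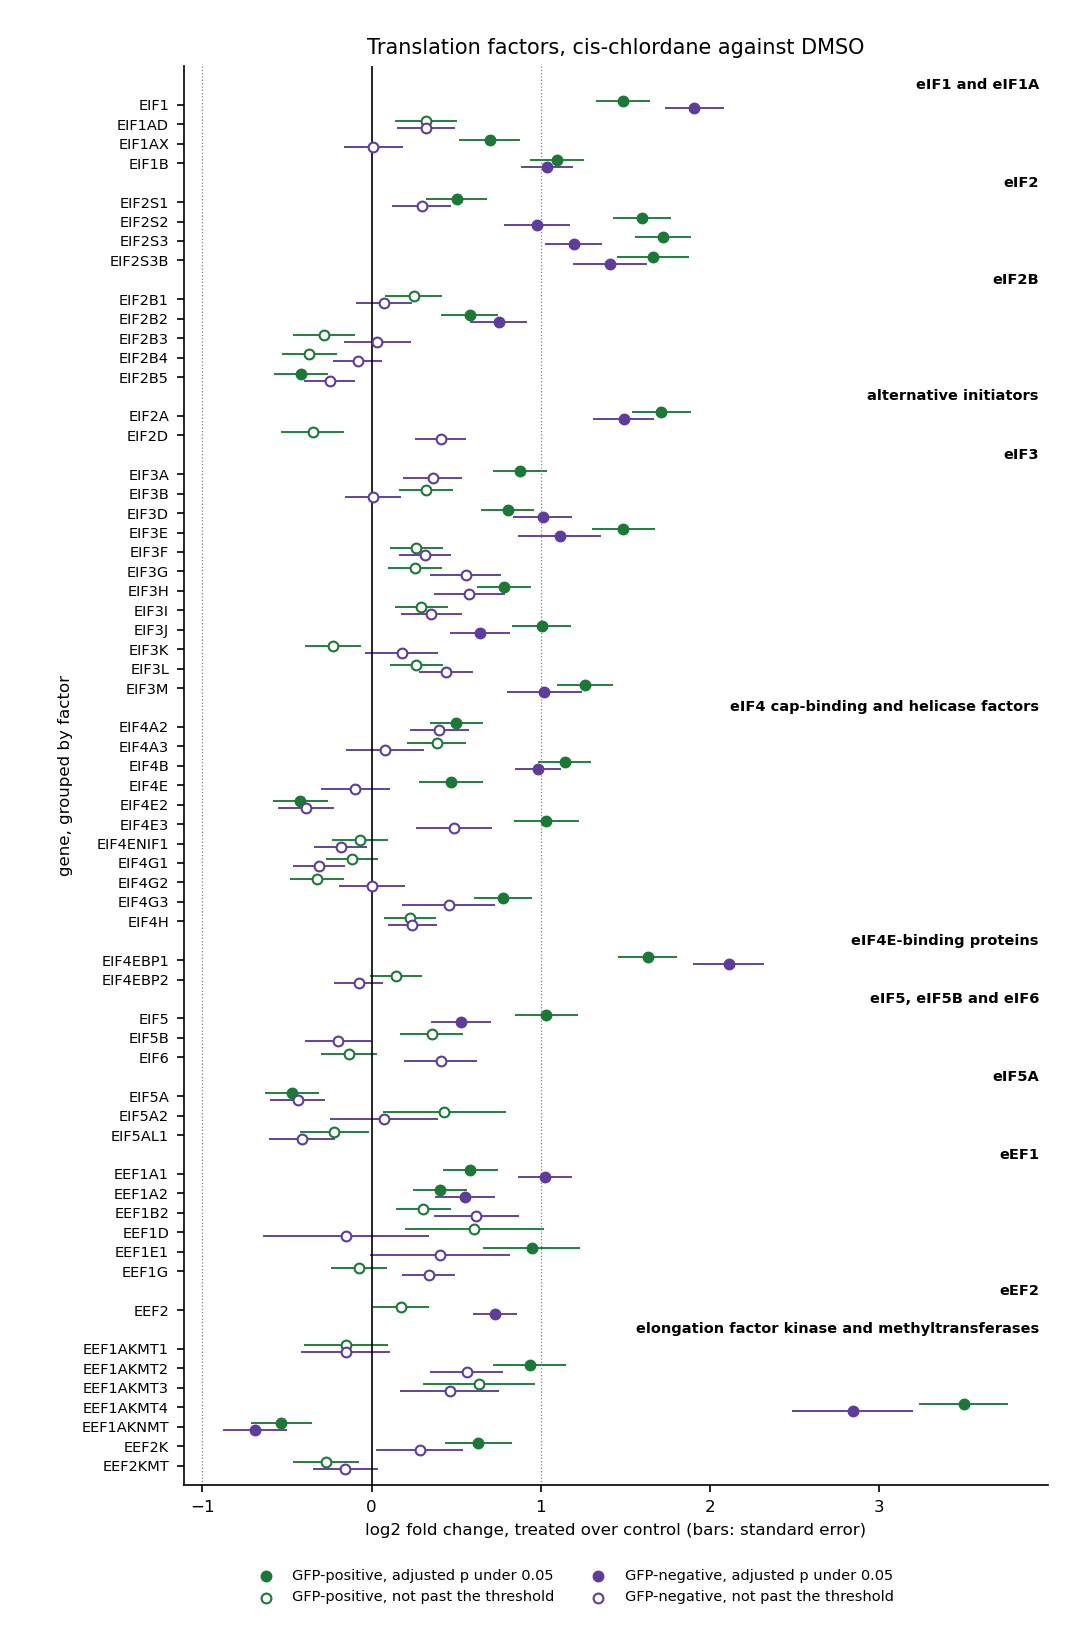
Log2 fold change of the 60 tested members, treated over control, in GFP-positive (green) and GFP-negative cells (purple), grouped by factor. Points are edgeR estimates from 3 against 3 libraries, bars are standard errors, filled points passed an adjusted p of 0.05 and dotted lines mark a fold change of 2. Most filled points lie to the right of 0, with EEF1AKMT4 farthest at 3.50 and 2.84.

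The higher DEGs had a lower median GC content than the members that did not pass, with overlapping ranges. The 14 higher DEGs in GFP-positive cells had a median GC content of 41.3% (37.2 to 62.9%) over their reference transcripts, against 50.2% (33.9 to 64.6%) for the 28 members that did not pass the test and 52.1% (50.4 to 56.6%) for the 4 lower ones, a description with no test. Differences between libraries in the trend of log2 CPM on GC content were then removed over all genes. The higher DEGs numbered 8 in GFP-positive cells after that step (EEF1AKMT4, EIF1, EIF2A, EIF2S2, EIF2S3, EIF2S3B, EIF4EBP1 and EEF1D). Over all genes, 1643 of 14880 tested were higher DEGs after it, against 1959 of 15333 before. EEF1D was not a DEG without it and had only 14 to 160 counts per library. In GFP-negative cells the higher DEGs numbered 6 after that step (EEF1AKMT4, EIF1, EIF2A, EIF2S3B, EIF3D and EIF4EBP1). Over all genes there, 1218 of 15079 tested were higher DEGs after it, against 1332 of 15513 before. The same step was run for the other calls, and some results that it moved are given further on. Whether GC content caused any of the calls was not tested.

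Transcripts of the ternary complex factor eIF2 rose in the sorted motor neurons, with all 4 of its genes higher in GFP-positive cells, 3 of them DEGs, and 3 of 4 higher in GFP-negative cells. EIF2S3B, which may not be a measurement separate from EIF2S3, is among the DEGs of both fractions. Over all tested genes, 26.5 percent were called higher in GFP-positive cells (12.8 percent as DEGs) and 15.3 percent in GFP-negative cells. EIF2S3, the gamma subunit that binds GTP and the initiator transfer RNA, had 125, 90.3 and 121 CPM in the control GFP-positive libraries and 331, 349 and 379.8 CPM in the treated ones. Its log2 fold change was 1.72 ± 0.17 (SE, adjusted p = 1.01e-10), and the groups lay well apart. The GFP-negative libraries gave 164, 129 and 135 CPM for control and 374, 293 and 326 CPM for treated cells, a log2 fold change of 1.19 ± 0.17 (SE, adjusted p = 0.000763), also without overlap. EIF2S2, the beta subunit, rose from 62.9, 42.5 and 55.3 to 146, 173 and 146 CPM in GFP-positive cells, a log2 fold change of 1.60 ± 0.17 (SE, adjusted p = 1.27e-09). In GFP-negative cells it went from 104, 69.5 and 70.1 to 182, 147 and 159 CPM, a log2 fold change of 0.98 ± 0.20 (SE, adjusted p = 0.00469), just short of a 2-fold change. For this subunit no treated value reached down to a control value of the same fraction.

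EIF2S1, the alpha subunit that stress kinases phosphorylate, moved least of the eIF2 genes. It had 43.6, 40.9 and 47.3 CPM in the control GFP-positive libraries and 47.6, 54.4 and 76.0 CPM in the treated ones, a log2 fold change of 0.50 ± 0.18 (SE, adjusted p = 0.0199). The highest control and the lowest treated library nearly touched, and treated replicate 3 stood above the others. GFP-negative values were 69.3, 54.5 and 62.7 CPM in control and 71.3, 68.3 and 92.7 CPM in treated cells, with overlapping groups and a log2 fold change of 0.30 ± 0.18 (SE, adjusted p = 0.23). EIF2S3B, a copy of EIF2S3 whose reads may be hard to assign, had 4.85, 5.45 and 7.52 CPM in the control GFP-positive libraries and 18.3, 17.8 and 17.8 CPM in the treated ones. That is a log2 fold change of 1.67 ± 0.21 (SE, adjusted p = 4.59e-08), and in GFP-negative cells, at 5.32, 6.02 and 7.22 against 17.7, 14.4 and 17.9 CPM, it was 1.41 ± 0.22 (SE, adjusted p = 0.00125). Its level ran at a small part of that of EIF2S3 in each library, so its rise is uncertain as a separate measurement.

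The exchange factor eIF2B, which recharges eIF2 with GTP, had calls at about the rate of all genes. Of its 5 genes 1 (20%) was higher and 1 (20%) lower in GFP-positive cells, near the 26.5 and 24.4 percent of all tested genes, and 1 was higher and 0 were lower in GFP-negative cells (edgeR, with the same 0 by DESeq2 and 1 of the 5 at an unadjusted p under 0.05). EIF2B2, the beta subunit, had 48.9, 58.9 and 52.1 CPM in the control GFP-positive libraries and 71.2, 69.4 and 87.5 CPM in the treated ones, a log2 fold change of 0.58 ± 0.17 (SE, adjusted p = 0.0044) with no overlap. It was also higher in GFP-negative cells, with 70.0, 62.6 and 54.9 CPM in control and 114, 92.0 and 114 CPM in treated libraries, at 0.75 ± 0.17 (SE, adjusted p = 0.00784). EIF2B5, the catalytic epsilon subunit, had 88.3, 98.2 and 85.3 CPM in the control GFP-positive libraries and 65.5, 64.0 and 65.0 CPM in the treated ones, so all treated libraries lay below all controls at a log2 fold change of -0.42 ± 0.16 (SE, adjusted p = 0.0301). In GFP-negative cells EIF2B5 had 97.6, 92.4 and 81.4 CPM in control and 77.3, 72.4 and 82.4 CPM in treated libraries, overlapping at the edges, and the log2 fold change was -0.25 ± 0.15 (SE, adjusted p = 0.239). The remaining 3 subunits gave log2 fold changes of 0.25 (EIF2B1), -0.28 (EIF2B3) and -0.37 (EIF2B4) in GFP-positive cells and passed in neither fraction.

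EIF2A and EIF2D encode factors that can bring an initiator transfer RNA to the ribosome without eIF2, and EIF2A is distinct from the alpha subunit of eIF2. EIF2A had 41.4, 31.7 and 41.3 CPM in the control GFP-positive libraries and 101, 120.5 and 136 CPM in the treated ones, a log2 fold change of 1.71 ± 0.18 (SE, adjusted p = 4.42e-10). The treated GFP-negative libraries, at 96.0, 71.8 and 103.4 CPM, were likewise all above the controls, at 32.6, 28.9 and 33.6 CPM, and the log2 fold change was 1.49 ± 0.18 (SE, adjusted p = 0.000365). Among the member promoters searched, the EIF2A promoter alone held an ER stress response element, the sequence that the unfolded protein response factors ATF6 and NF-Y bind. It is shown because EIF2A was one of the steepest risers. The element starts at position -77 from the RefSeq gene start, on the strand of the gene. The GENCODE annotation places the gene start before it, at 150546678. The stretch printed below, with flanking bases in lower case, is chr3:150546705-150546733 of GRCh38.p14 (plus strand, 5′ to 3′), where capitals mark the element.
EIF2A promoter: aaacaCCAATTCGCTGTCTCCACGcatga

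Promoters of 250 bases before to 50 bases after the RefSeq gene start were found for 52 of the 65 members. The ER stress response element was searched on both strands and found in 1 of these 52 (1.92%), in 22 of all 27305 promoters in that set (0.0806%) and in 15 of the 11653 promoters of genes tested in GFP-positive cells (0.129%). The C/EBP-ATF response element, written TGATGNAA, was in 0 of the 52 member promoters, in 3.67% of all promoters and in 1.79% of those of genes tested in GFP-positive cells, and the unfolded protein response core, TGACGTGG, was in 0 of 52, in 0.795% and in 0.953%. A match describes the letters in the window and shows no binding. Promoters of EIF2S2, EIF3E and EIF4EBP1, which were DEGs, were among the 13 not searched.

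EIF2D went the other way in the sorted motor neurons without passing the test. It had 25.7, 32.8 and 27.4 CPM in the control GFP-positive libraries and 21.1, 23.7 and 19.6 CPM in the treated ones, with every treated library below every control and a log2 fold change of -0.35 ± 0.18 (SE, adjusted p = 0.114). In the GFP-negative fraction the same gene had 48.8, 48.2 and 47.4 CPM in control and 60.9, 62.0 and 71.5 CPM in treated libraries, all treated ones above, and a log2 fold change of 0.41 ± 0.15 (SE, adjusted p = 0.0632). The difference between these responses is taken up with the interaction test.

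Of eIF1 and eIF1A, 3 of 4 genes (75%) were higher in GFP-positive and 2 of 4 (50%) in GFP-negative cells. The shares over all tested genes were 26.5 and 15.3 percent. EIF1, which keeps the scanning ribosome open until a start codon is found, had 864, 932 and 778 CPM in the control GFP-positive libraries and 2072, 2399.8 and 2401 CPM in the treated ones. This is a log2 fold change of 1.48 ± 0.16 (SE, adjusted p = 1.27e-09). With 813, 630.0 and 555 CPM in the control GFP-negative libraries and 2648, 2234 and 2727 CPM in the treated ones, it was 1.91 ± 0.18 (SE, adjusted p = 8.34e-05) in the other fraction, and in both fractions the treated libraries stood far above the controls. EIF1B, a close paralogue of EIF1, had 142, 145 and 132 CPM in the control GFP-positive libraries and 246, 316 and 294 CPM in the treated ones and a log2 fold change of 1.10 ± 0.16 (SE, adjusted p = 5.08e-07). Its GFP-negative values were 137, 123 and 115 CPM in control and 275, 232 and 272 CPM in treated cells, at 1.04 ± 0.15 (SE, adjusted p = 0.000969), with no overlap in either fraction. EIF1AX, the eIF1A gene of the X chromosome, had 31.6, 29.0 and 37.9 CPM in the control GFP-positive libraries and 42.3, 51.0 and 59.1 CPM in the treated ones, a log2 fold change of 0.70 ± 0.18 (SE, adjusted p = 0.00148). In GFP-negative cells its log2 fold change was 0.01 ± 0.17 (SE, adjusted p = 0.97). EIF1AD, a protein related to eIF1A, had the smallest change of this set in GFP-positive cells, with 38.5, 38.5 and 38.6 CPM in the control GFP-positive libraries and 41.6, 36.6 and 59.6 CPM in the treated ones, overlapping groups and a log2 fold change of 0.32 ± 0.18 (SE, adjusted p = 0.142).

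**Figure D2:**
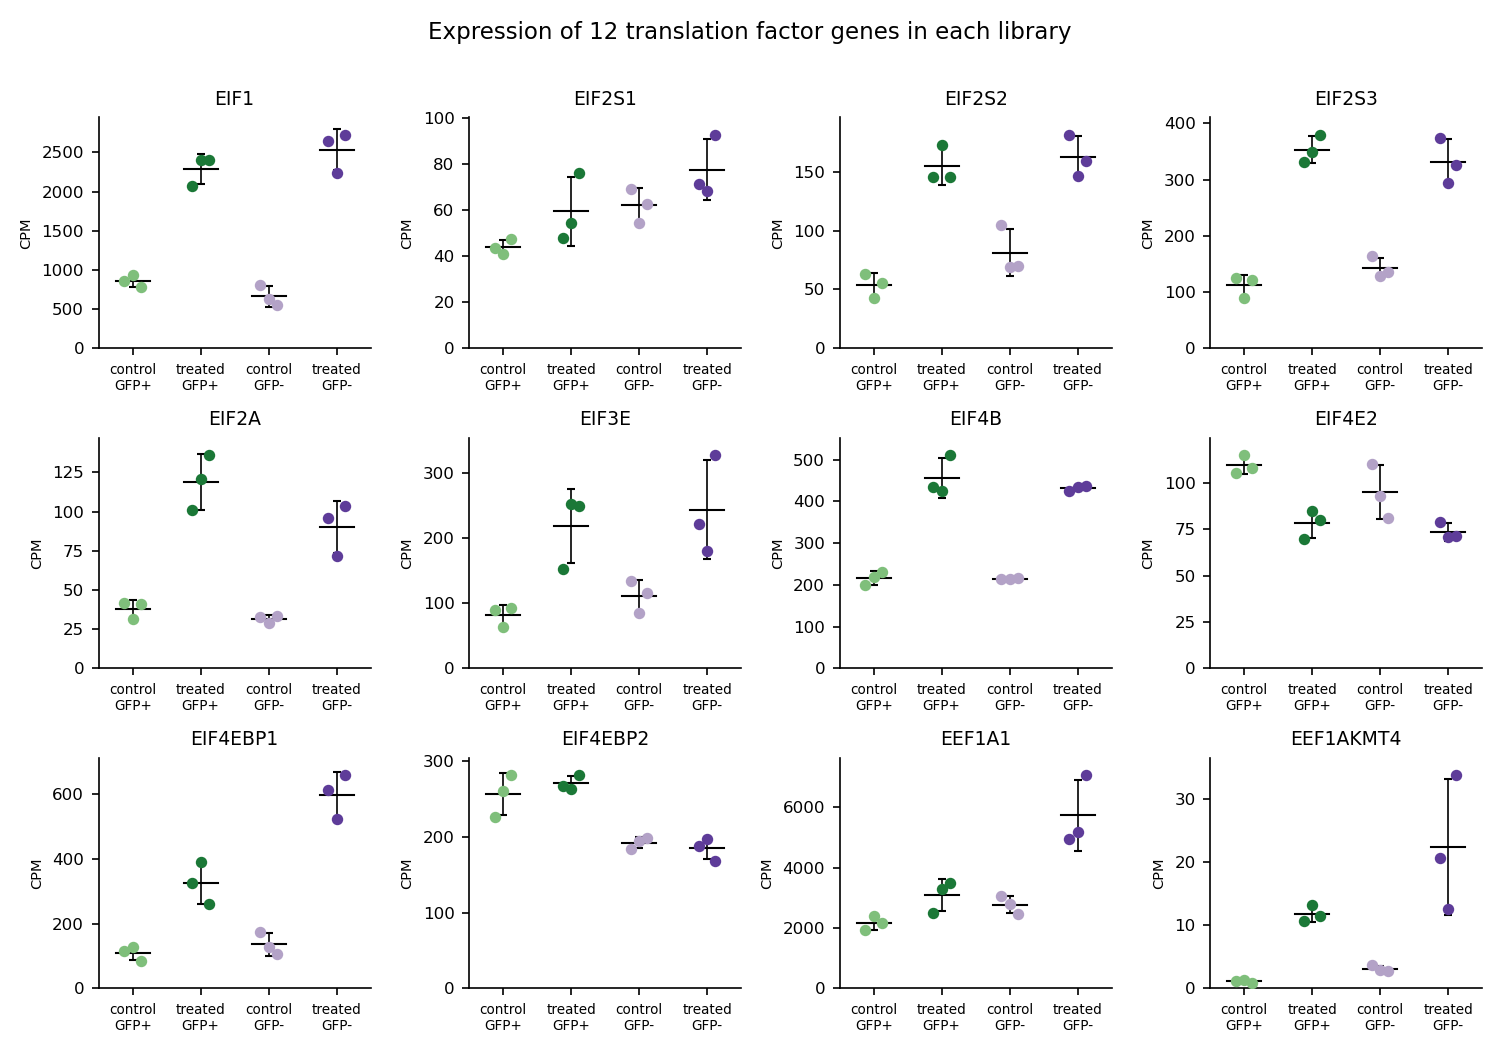
Expression in CPM of 12 members in each of the 12 libraries, by group. Points are libraries, horizontal lines are group means and bars are SD (n = 3). EIF1, EIF2S2, EIF2S3, EIF2A, EIF3E, EIF4B, EIF4EBP1, EEF1A1 and EEF1AKMT4 have all treated libraries above all controls in both fractions, while EIF4EBP2 and EIF2S1 show little or uneven change and EIF4E2 lies lower.

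For the scaffold eIF3, which bridges the small subunit and the cap complex, transcripts of part of its subunits rose. Of its 14 genes 12 were tested, and 6 (50%) were higher in GFP-positive cells and 4 (33.3%) in GFP-negative cells. Over all tested genes, 26.5 and 15.3 percent were called higher, and 24.4 and 16.2 percent lower. In eIF3 0 were lower in either fraction (by DESeq2 also 0, with 6 and 7 of the 12 at an unadjusted p under 0.05). EIF3E, a subunit of the PCI/MPN core, had 90.0, 63.2 and 91.9 CPM in the control GFP-positive libraries and 152, 253 and 249.9 CPM in the treated ones. Its log2 fold change was 1.49 ± 0.19 (SE, adjusted p = 3.27e-08), although treated replicate 1 stood well below the other treated libraries. In GFP-negative cells 134, 84.2 and 115 CPM became 222, 181 and 328 CPM, at 1.11 ± 0.25 (SE, adjusted p = 0.00763), and the treated libraries spread widely but stayed above the controls. EIF3M, another subunit of that core, had 70.1, 62.4 and 73.4 CPM in the control GFP-positive libraries and 130.0, 166 and 175 CPM in the treated ones, a log2 fold change of 1.26 ± 0.17 (SE, adjusted p = 8.09e-08). Its values were 134, 96.9 and 86.6 CPM in control and 212, 171 and 272 CPM in treated GFP-negative libraries, at 1.02 ± 0.22 (SE, adjusted p = 0.00705). No treated library reached down to a control for EIF3M, whose GFP-negative call held in 13 of 15 alternative settings.

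EIF3J, a loosely bound subunit, had 42.2, 35.9 and 42.6 CPM in the control GFP-positive libraries and 66.8, 69.5 and 94.6 CPM in the treated ones, a log2 fold change of 1.00 ± 0.18 (SE, adjusted p = 1.34e-05), which lies on the 2-fold limit. In GFP-negative cells it had 47.3, 44.6 and 59.0 CPM in control and 81.8, 67.6 and 89.5 CPM in treated libraries, at 0.64 ± 0.18 (SE, adjusted p = 0.021), a call that held in 10 of 15 alternative settings. EIF3D, the subunit that can itself bind a cap, had 124, 136 and 109 CPM in the control GFP-positive libraries and 192, 206 and 217 CPM in the treated ones and a log2 fold change of 0.80 ± 0.16 (SE, adjusted p = 6.47e-05). It was a DEG in the other fraction, with 268, 221 and 183 CPM in the control GFP-negative libraries and 448, 437 and 491 CPM in the treated ones, at 1.01 ± 0.17 (SE, adjusted p = 0.00211). Groups did not overlap for EIF3D in either fraction. EIF3A and EIF3H completed the higher subunits in GFP-positive cells, at log2 fold changes of 0.88 and 0.79. EIF3K had the lowest estimate, with 183, 215 and 161 CPM in the control GFP-positive libraries and 129, 174 and 152 CPM in the treated ones, overlapping groups and a log2 fold change of -0.23 ± 0.16 (SE, adjusted p = 0.249). EIF3B, EIF3F, EIF3G, EIF3I and EIF3L lay between 0.26 and 0.32 on the same scale and did not pass.

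Of the eIF4 factors 11 of 13 were tested. In GFP-positive cells 5 (45.5%) were higher and 1 (9.09%) lower, where 26.5 and 24.4 percent of all tested genes were. In GFP-negative cells 1 (9.09%) was higher and 0 were lower (edgeR, with 0 lower by DESeq2 and 3 of the 11 at an unadjusted p under 0.05). Of all tested genes there, 15.3 percent were called higher and 16.2 percent lower. EIF4B, which stimulates the helicase eIF4A, had 199, 219 and 232 CPM in the control GFP-positive libraries and 434, 424 and 512 CPM in the treated ones, a log2 fold change of 1.14 ± 0.16 (SE, adjusted p = 2.21e-07). In GFP-negative cells it had 214, 214 and 217 CPM in control and 425, 433 and 436 CPM in treated libraries, very tight groups, at 0.98 ± 0.14 (SE, adjusted p = 0.000704). EIF4E3, an eIF4E relative that binds caps in its own way, had 11.8, 12.8 and 14.0 CPM in the control GFP-positive libraries and 22.3, 24.8 and 28.3 CPM in the treated ones, a log2 fold change of 1.03 ± 0.19 (SE, adjusted p = 3e-05). GFP-negative cells had 8.37, 8.54 and 12.4 CPM in control and 14.8, 14.3 and 12.5 CPM in treated libraries for this gene, and it did not pass there, at 0.49 ± 0.23 (SE, adjusted p = 0.129). EIF4E2, the relative that acts in repression and under low oxygen, had 105, 115 and 108 CPM in the control GFP-positive libraries and 69.7, 84.9 and 79.7 CPM in the treated ones. All its treated GFP-positive libraries lay below all controls, at -0.42 ± 0.16 (SE, adjusted p = 0.0273). The GFP-negative libraries were ordered the same way, with 110.0, 93.0 and 81.1 CPM in control and 79.0, 70.5 and 71.2 CPM in treated cells, but the test was not passed at -0.39 ± 0.17 (SE, adjusted p = 0.103).

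EIF4E, the main cap-binding protein, had a log2 fold change of 0.47 ± 0.19 (SE, adjusted p = 0.0354) in GFP-positive cells with overlapping groups, and -0.10 ± 0.20 (SE, adjusted p = 0.751) in GFP-negative cells. The helicase gene EIF4A2 was at 0.50 ± 0.16 (SE, adjusted p = 0.00795) and the scaffold gene EIF4G3 at 0.78 ± 0.17 (SE, adjusted p = 0.000326) in GFP-positive cells. Its relative EIF4G1 was at -0.12 ± 0.15 (SE, adjusted p = 0.551), and EIF4G2, a relative used in cap-independent initiation, at -0.32 ± 0.16 (SE, adjusted p = 0.0878), neither past the threshold. EIF4A3, EIF4ENIF1 and EIF4H passed in neither fraction. EIF4A1, normally an abundant helicase gene, was listed at 0 in all 12 libraries, and 47.4% of its exon bases are shared on the same strand with other annotated genes, so it cannot be read here.

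The eIF4E-binding proteins repress cap-dependent initiation, and of their 2 tested genes 1 was higher in both fractions and 1 passed in neither. Over all genes tested in both fractions, 12.5% were called higher in both. EIF4EBP1 had 117, 128 and 85.6 CPM in the control GFP-positive libraries and 327, 389 and 261 CPM in the treated ones, a log2 fold change of 1.63 ± 0.18 (SE, adjusted p = 1.37e-09). In GFP-negative cells the gene had 176, 129 and 106 CPM in control and 614, 523 and 661 CPM in treated libraries, at 2.11 ± 0.21 (SE, adjusted p = 0.000126). Every treated library exceeded every control library of either fraction, and the treated GFP-negative libraries were the highest of all. EIF4EBP2, the form common in brain, had 227, 261 and 282 CPM in the control GFP-positive libraries and 267, 263 and 282 CPM in the treated ones, with overlapping groups and a log2 fold change of 0.15 ± 0.15 (SE, adjusted p = 0.449). Its GFP-negative values were 184, 194 and 198 CPM in control and 188, 197 and 169 CPM in treated libraries, at -0.08 ± 0.14 (SE, adjusted p = 0.717). The sign of the small GFP-positive estimate turned to -0.03 with the GC trend removed. EIF4EBP3 had 0 to 14 counts per library, was too low to test, and shares 73.2% of its exon bases with a read-through gene.

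The share of EIF4EBP1 in the summed counts of the 3 EIF4EBP genes followed from these changes. It was 23.3 to 34.0% in control and 48.1 to 59.7% in treated GFP-positive libraries, and 34.8 to 48.9% in control and 72.6 to 79.7% in treated GFP-negative libraries, without overlap in either fraction. Counts are not corrected for length here, so the share compares libraries and not genes. EIF4G3 made up 11.6 to 17.8% of EIF4G1 and EIF4G3 counts in control and 22.4 to 27.3% in treated GFP-positive libraries. In GFP-negative libraries that share was 6.36 to 11.7% and 11.3 to 16.7%, with overlapping ranges. Among EIF4E, EIF4E1B, EIF4E2 and EIF4E3, the share of EIF4E3 went from 8.18 to 9.71% in control to 17.7 to 19.6% in treated GFP-positive libraries, while that of EIF4E2 went from 73.1 to 77.1% to 55.1 to 60.5%. The GFP-negative ranges were 6.12 to 10.3% and 11.6 to 13.9% for EIF4E3 and 67.7 to 80.4% and 66.0 to 69.3% for EIF4E2, the last pair overlapping. With 3 libraries against 3, an exact permutation test cannot give a two-sided p below 0.1, so the shares carry no test.

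**Figure D3:**
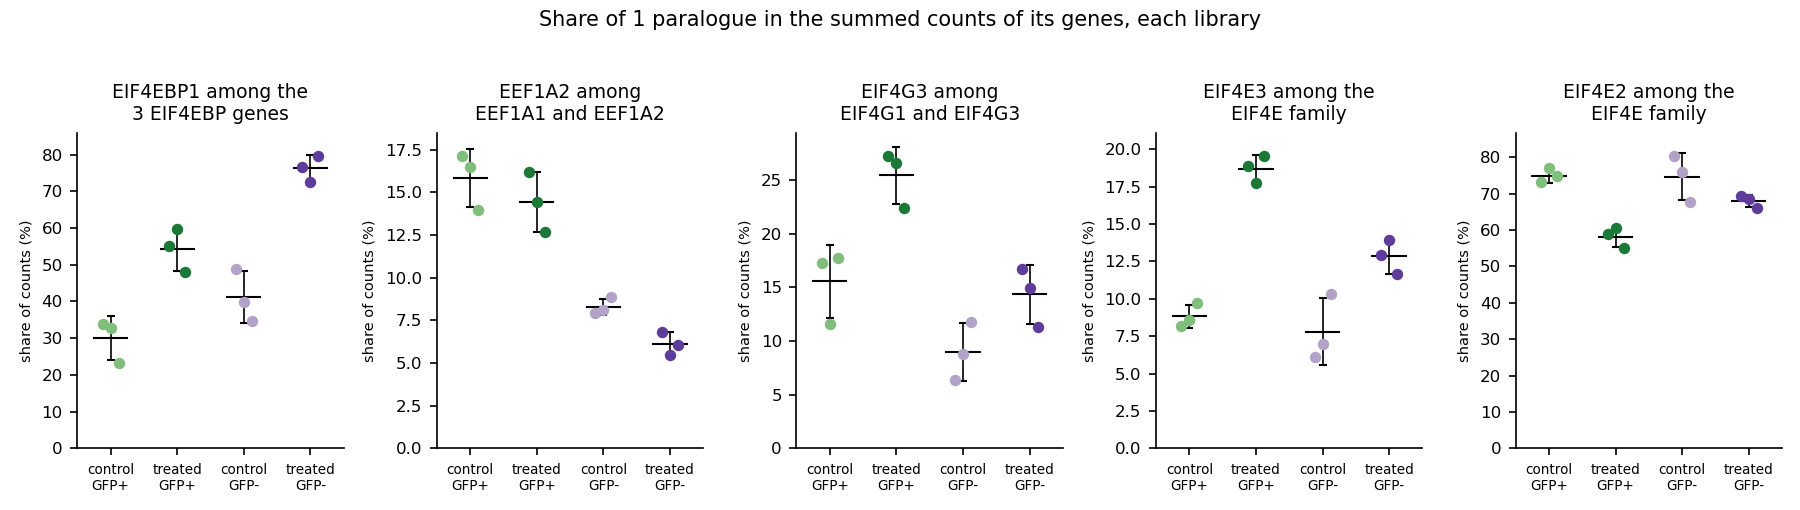
Share, in percent of counts, of EIF4EBP1, EEF1A2, EIF4G3, EIF4E3 and EIF4E2 in the summed counts of their paralogue genes, in each library. Points are libraries, lines are group means and bars are SD (n = 3), and the vertical axes start at 0. The EIF4EBP1 share is higher in every treated library than in the controls of its fraction, and the EEF1A2 share separates GFP-positive from GFP-negative libraries.

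Of EIF5, EIF5B and EIF6, which act up to and after subunit joining, 1 of 3 (33.3%) was higher in each fraction. Of all tested genes, 26.5 percent were called higher in GFP-positive and 15.3 percent in GFP-negative cells. EIF5, which triggers GTP hydrolysis by eIF2, had 124, 113 and 171 CPM in the control GFP-positive libraries and 226, 213 and 358 CPM in the treated ones, a log2 fold change of 1.03 ± 0.19 (SE, adjusted p = 1.79e-05). In GFP-negative cells it had 142, 141 and 164 CPM in control and 193, 189 and 273 CPM in treated libraries, at 0.53 ± 0.18 (SE, adjusted p = 0.0483). That call held in only 6 of 15 alternative settings, with an adjusted p of up to 0.229 by the same edgeR test. Treated libraries lay above the controls of their fraction in both cases. EIF6, which keeps free large subunits apart, had 144, 186 and 124 CPM in the control GFP-positive libraries and 116, 146 and 133 CPM in the treated ones, with overlapping groups and the lowest estimate of the set, at -0.13 ± 0.17 (SE, adjusted p = 0.526). EIF5B, the GTPase of subunit joining, was at 0.35 ± 0.19 (SE, adjusted p = 0.11).

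EIF5A was among the few members that fell. It had 519, 642 and 482 CPM in the control GFP-positive libraries and 356, 371 and 404 CPM in the treated ones, with no overlap and a log2 fold change of -0.47 ± 0.16 (SE, adjusted p = 0.0129). In GFP-negative cells all treated libraries were also below the controls, at 754, 726 and 830.2 against 1237, 961 and 882 CPM, but the adjusted p was over the threshold, at -0.44 ± 0.16 (SE, adjusted p = 0.0676). Its near copy EIF5AL1 was at -0.22 ± 0.20 (SE, adjusted p = 0.38) and -0.41 ± 0.20 (SE, adjusted p = 0.137) in the 2 fractions, and reads of EIF5A could be assigned to it. EIF5A2, the rarer paralogue, had 1.49, 1.07 and 1.50 CPM in the control GFP-positive libraries and 1.08, 1.60 and 2.52 CPM in the treated ones, only 36 to 95 counts per library, overlapping groups and a log2 fold change of 0.43 ± 0.36 (SE, adjusted p = 0.33).

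Of the 6 eEF1 genes 3 (50%) were higher in GFP-positive and 2 (33.3%) in GFP-negative cells, where 26.5 and 15.3 percent of all tested genes were. Both eEF1A genes were higher in both fractions, a call made for 12.5% of all genes tested in both. EEF1A1 had 1947, 2399 and 2166 CPM in the control GFP-positive libraries and 2497, 3309 and 3508 CPM in the treated ones, a log2 fold change of 0.58 ± 0.16 (SE, adjusted p = 0.00311). That call held in 13 of 15 alternative settings, and with the GC trend removed the log2 fold change was 0.29 at an adjusted p of 0.125 (edgeR). It was a DEG in GFP-negative cells, with 3049.5, 2810.0 and 2469 CPM in the control GFP-negative libraries and 4961, 5175 and 7089 CPM in the treated ones, at 1.03 ± 0.16 (SE, adjusted p = 0.00128). The treated libraries exceeded the controls in each fraction, and treated GFP-negative replicate 3 was the highest. EEF1A2 had 403, 473 and 351 CPM in control and 482, 557 and 509 CPM in treated GFP-positive libraries, at 0.40 ± 0.16 (SE, adjusted p = 0.0332), and 263, 248 and 239 against 364, 298 and 456 CPM in GFP-negative ones, at 0.55 ± 0.18 (SE, adjusted p = 0.0384). The share of EEF1A2 in the summed counts of the pair was 13.9 to 17.1% in control and 12.7 to 16.2% in treated GFP-positive libraries, overlapping ranges. It was lower in GFP-negative libraries, at 7.93 to 8.84% in control and 5.45 to 6.84% in treated cells, where the ranges did not overlap.

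EEF1E1, a small factor of the aminoacyl-tRNA synthetase complex, had 3.50, 1.74 and 3.74 CPM in the control GFP-positive libraries and 4.11, 6.96 and 5.40 CPM in the treated ones, a log2 fold change of 0.95 ± 0.29 (SE, adjusted p = 0.00621) without overlap but at a low level. EEF1G, the gamma subunit, had 1184, 1569 and 1133 CPM in the control GFP-positive libraries and 972, 1338 and 1212 CPM in the treated ones, overlapping groups and the lowest estimate of eEF1, at -0.07 ± 0.17 (SE, adjusted p = 0.732). Nearly all its exon bases, 99.7%, are shared with an overlapping gene model, so its count may be incomplete. EEF1B2, an exchange factor subunit, was at 0.31 ± 0.16 (SE, adjusted p = 0.117) and did not pass. EEF1D had only 14 to 160 counts per library, far below its partners in the same complex, and its estimate of 0.61 ± 0.41 (SE, adjusted p = 0.219) is imprecise. The counting settings are not given, so this level does not show that the gene was nearly silent. The translocase gene EEF2 had 4122, 6301 and 4389.6 CPM in the control GFP-positive libraries and 4853, 5606 and 5494 CPM in the treated ones, overlapping and at 0.18 ± 0.17 (SE, adjusted p = 0.391). In GFP-negative cells it was higher, with 4326, 5275 and 4871 CPM in control and 7658, 7429.9 and 9252 CPM in treated libraries and a log2 fold change of 0.73 ± 0.13 (SE, adjusted p = 0.00248).

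The enzymes that modify elongation factors held both extremes of the family. EEF1AKMT4, a lysine methyltransferase of eEF1A, had 1.12, 1.25 and 0.896 CPM in the control GFP-positive libraries and 10.7, 13.2 and 11.5 CPM in the treated ones. Its log2 fold change of 3.50 ± 0.26 (SE, adjusted p = 2.55e-13) was the highest among the members. In GFP-negative cells the gene had 3.61, 2.88 and 2.67 CPM in control and 20.6, 12.5 and 33.8 CPM in treated libraries, a wide spread that did not reach the controls, at 2.84 ± 0.36 (SE, adjusted p = 0.000421). It shares 49.2% of its exon bases with the read-through gene EEF1AKMT4-ECE2, which was listed at 0 counts in every library, so how reads were assigned between them is uncertain. EEF1AKNMT, which methylates eEF1A at other residues and is also known as METTL13, had 36.3, 37.6 and 33.5 CPM in the control GFP-positive libraries and 23.8, 20.4 and 26.5 CPM in the treated ones, a log2 fold change of -0.53 ± 0.18 (SE, adjusted p = 0.0134). It fell in GFP-negative cells as well, from 57.6, 54.8 and 40.8 to 28.0, 32.2 and 36.3 CPM, at -0.69 ± 0.19 (SE, adjusted p = 0.0215), and no groups overlapped. EEF1AKMT2, another lysine methyltransferase, was higher in GFP-positive cells at 0.93 ± 0.22 (SE, adjusted p = 0.000519). EEF2K, the kinase that inactivates eEF2, was also higher there at 0.63 ± 0.20 (SE, adjusted p = 0.00783), with groups that overlapped. EEF1AKMT1, EEF1AKMT3 and EEF2KMT passed in neither fraction.

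The lower calls depended on single libraries. The 4 lower members in GFP-positive cells became 0 without control GFP-positive replicate 2, 1 without treated GFP-positive replicate 1, 2 without treated GFP-positive replicate 2 and 1 with library size alone as the scaling, where the remaining one was EIF5A. The 11 higher DEGs of the GFP-negative fraction became 6 without treated GFP-negative replicate 3 and 7 without control GFP-negative replicate 3, and EEF1AKNMT lost its call there without control GFP-negative replicate 2 and without treated GFP-negative replicate 1 or 2. The scaling itself moved the median of all genes in GFP-positive cells from 0.03 to 0.14 with library size alone. Fold changes and calls of single genes are as fitted and were not centred on that median. In GFP-positive cells 7 genes, EEF1AKMT4, EIF1, EIF2A, EIF2S2, EIF2S3, EIF2S3B and EIF4EBP1, stayed DEGs in all 15 alternative settings run, and in GFP-negative cells 5 did, the same ones without EIF2S2 and EIF2S3.

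Whether the response differed between the sort fractions was tested as an interaction in all 12 libraries. By edgeR 0 of the 60 members passed, where 2.19 percent of 16226 tested genes did. An unadjusted p under 0.05 was found for 6 members and for 2701 of the 16226 tested genes. DESeq2 called 1 member, EIF2D. The DEGs of 1 fraction that were not DEGs in the other, such as EIF4E3 with an interaction of 0.46 ± 0.27 (SE, adjusted p = 0.415), are therefore not shown to differ between fractions. EIF2D had an interaction of -0.84 ± 0.22 (SE, adjusted p = 0.0549) and EEF2 of -0.64 ± 0.22 (SE, adjusted p = 0.146), the responses in GFP-positive cells being the lower ones. With the culture as a replicate block, both passed, EIF2D at -0.84 ± 0.19 (SE, adjusted p = 0.0191) and EEF2 at -0.62 ± 0.17 (SE, adjusted p = 0.0386). In that fit 519 of all 16226 tested genes were called in the positive and 745 in the negative direction. The block pairs sorts of 1 number, and the partner of treated GFP-positive replicate 1 is not settled.

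The control cells, given DMSO alone, show how the family stood without cis-chlordane in sorted motor neurons and in the other cells of the same cultures. Control GFP-positive cells had 21 of the 60 members (35.0%) lower than control GFP-negative cells and 2 higher, where 23.1 percent and 17.1 percent of 15404 tested genes were called lower and higher. With the culture as a replicate block the counts were 29 lower and 4 higher, the added higher genes being EIF4EBP2 and EIF4G2. In that fit 4266 of all 15404 tested genes were called lower and 3682 higher, against 3554 and 2638 without the block. There were 5 lower DEGs (8.33%, against 15.3 percent of all tested genes), and 0 higher ones by edgeR or DESeq2 (against 7.47 percent). By edgeR 31 of the 60 members had an unadjusted p under 0.05, as did 7543 of all 15404 tested genes. The lower DEGs numbered 1 without control GFP-negative replicate 1 and 2 without control GFP-positive replicate 3, and the higher members 4 without control GFP-negative replicate 3. The median log2 fold change was -0.43 over the members and -0.02 over all tested genes. The cycling-cell markers given above were lower in the GFP-positive cells as well, and their part in this was not tested.

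The lower calls were 6 of 12 tested eIF3 genes, 3 of 6 of eEF1, 3 of 11 of eIF4, 2 of 3 of eIF5A, 2 of 4 of eIF2 and 5 others, with no test between the complexes. The share over all tested genes was 23.1 percent, and eIF4, at 27.3%, lay near it. All 12 tested eIF3 genes had a negative log2 fold change, from -1.002 for EIF3B to -0.22 for EIF3L. EIF3B, the scaffold that holds EIF3G and EIF3I, had 176, 189.9 and 152 CPM in the GFP-positive and 379, 316 and 272 CPM in the GFP-negative controls, at -1.002 ± 0.16 (SE, adjusted p = 0.000705) and without overlap. EEF1B2 had 179, 192 and 156 against 452, 322 and 244 CPM, at -1.05 ± 0.21 (SE, adjusted p = 0.00261), although control GFP-negative replicate 3 was far below replicate 1. EIF5A had 519, 642 and 482 against 1237, 961 and 882 CPM, at -1.01 ± 0.17 (SE, adjusted p = 0.00109), and its copy EIF5AL1 was at -1.04 ± 0.19 (SE, adjusted p = 0.00167). EEF1AKMT4 was the lowest in GFP-positive controls, with 1.12, 1.25 and 0.896 against 3.61, 2.88 and 2.67 CPM, at -1.59 ± 0.31 (SE, adjusted p = 0.00262).

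The 2 higher members are paralogues that the GFP-positive cells held at a greater level. EIF4A2 had 310.2, 293 and 324 CPM in control GFP-positive and 187, 165 and 173 CPM in control GFP-negative libraries, at 0.71 ± 0.13 (SE, adjusted p = 0.00193). EEF1A2, the neuronal and muscle form of eEF1A, had 403, 473 and 351 against 263, 248 and 239 CPM, at 0.60 ± 0.15 (SE, adjusted p = 0.00856), while EEF1A1 was lower at -0.46 ± 0.14 (SE, adjusted p = 0.0249). Groups did not overlap for any of the 3 genes. The plot of control cells shows the whole family for this comparison.

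**Figure D4:**
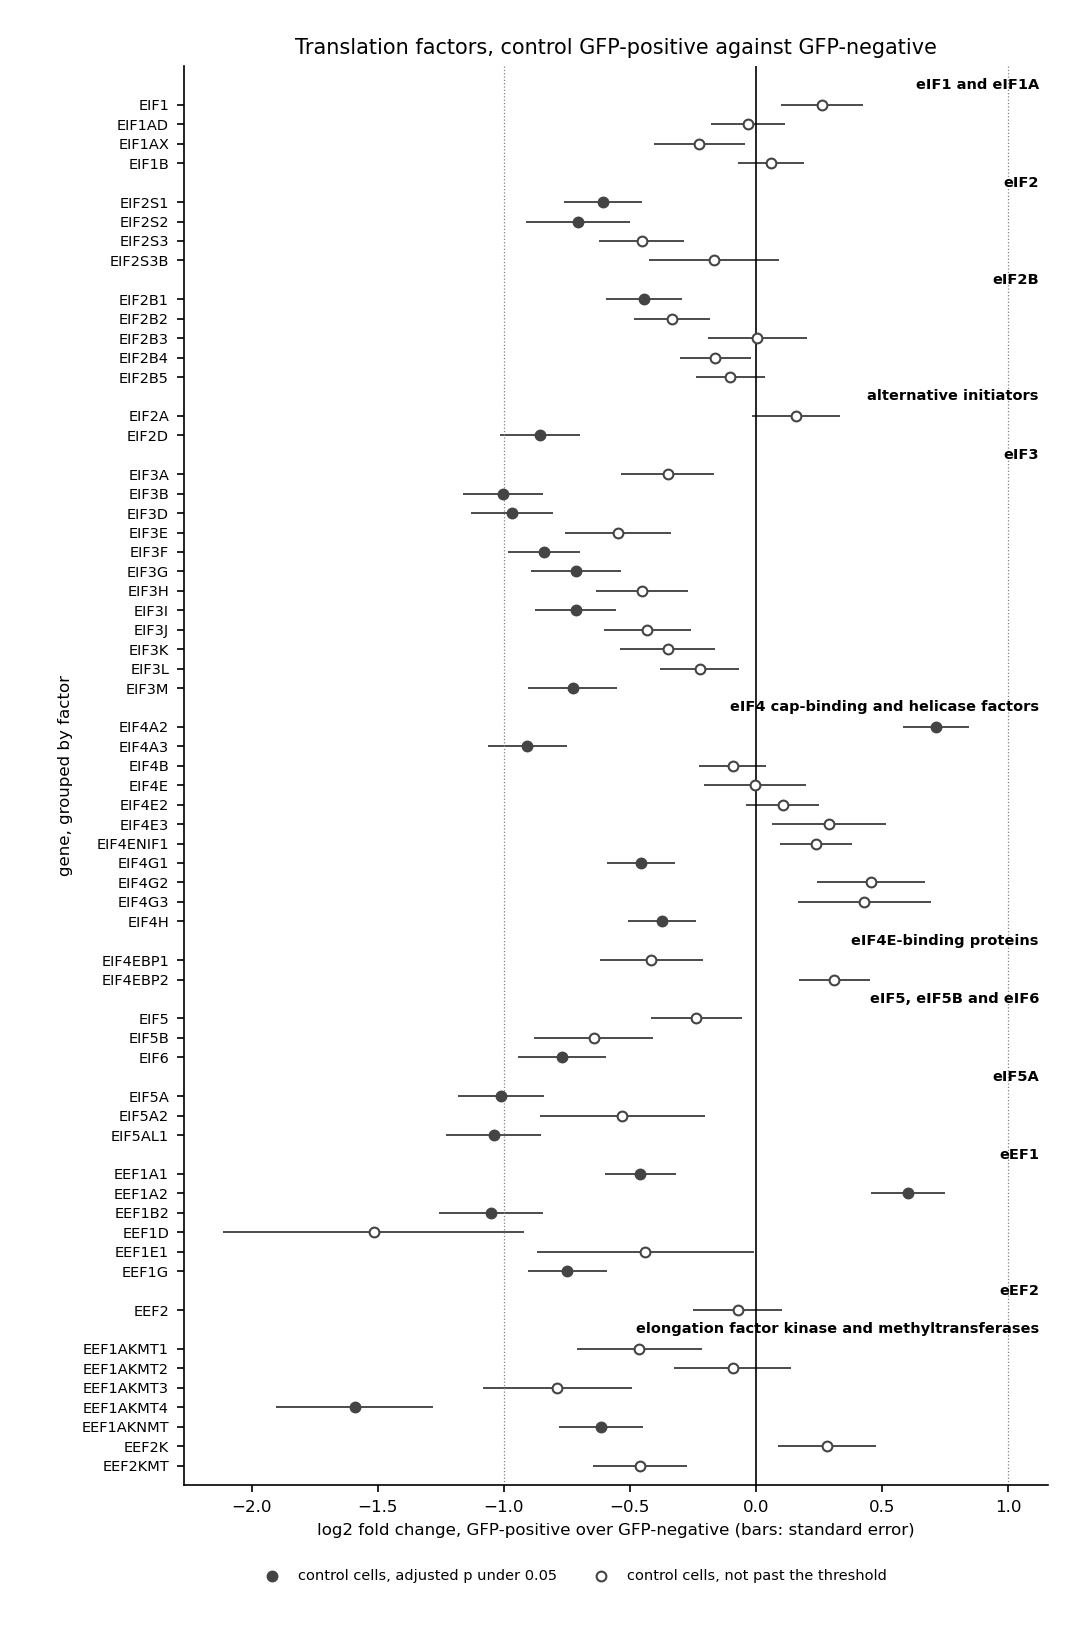
Log2 fold change of the 60 tested members, control GFP-positive over control GFP-negative cells, grouped by factor. Points are edgeR estimates from 3 against 3 libraries, bars are standard errors, and filled points passed an adjusted p of 0.05. The filled points are left of 0 for 21 members and right of 0 for EIF4A2 and EEF1A2.

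Per kilobase of reference transcript, EEF2, EEF1G and EEF1A1 had the highest levels among the members in control GFP-positive cells. EEF2 stood at 1563 ± 376 CPM per kilobase (SD, n = 3), followed by EEF1G at 896 ± 165, EEF1A1 at 618 ± 64.3, EIF5A at 433 ± 66.3, EIF4G2 at 426 ± 67.5 and EIF1 at 367 ± 33.0 CPM per kilobase. The library ranges of EIF5A, EIF4G2 and EIF1 overlapped, so their order is not settled. After treatment EIF1 was at 979.9 ± 81.2 CPM per kilobase in GFP-positive cells, next to EEF1A1 at 884 ± 153, and at 1085 ± 113 CPM per kilobase in GFP-negative cells. Within eIF2, EIF2S3 had 32.4 ± 5.47, EIF2S2 21.0 ± 4.04 and EIF2S1 10.6 ± 0.768 CPM per kilobase in control GFP-positive cells, an order without overlapping ranges. EIF4EBP1 exceeded EIF4EBP2 on this scale, at 133 ± 26.5 against 34.2 ± 3.71 CPM per kilobase.

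Around the family, 45 genes of translation control (poly(A)-binding proteins, release factors, ribosome rescue, the mTOR and MNK kinases and the enzymes that make diphthamide and hypusine) were all tested. In GFP-positive cells 20 of the 45 (44.4%) were higher and 4 (8.89%) lower after treatment, against 26.5 and 24.4 percent of all tested genes, with 6 higher DEGs (13.3%, near the 12.8 percent of all tested genes) and a median log2 fold change of 0.36. In GFP-negative cells 11 (24.4%) were higher and 2 (4.44%) lower, against 15.3 and 16.2 percent of all tested genes, and 4 were higher DEGs (8.89%, near the 8.59 percent of all tested genes), with a median of 0.25. PDCD4, an inhibitor of the eIF4A helicase, was at 2.56 ± 0.20 (SE, adjusted p = 4.1e-13) in GFP-positive and 1.96 ± 0.29 (SE, adjusted p = 0.00103) in GFP-negative cells. MKNK2, a kinase that phosphorylates eIF4E, was at 1.35 ± 0.16 (SE, adjusted p = 8.37e-09) and 1.28 ± 0.14 (SE, adjusted p = 0.000241). The release factor gene ETF1 was at 1.22 ± 0.17 (SE, adjusted p = 1.89e-07) and 0.92 ± 0.15 (SE, adjusted p = 0.00179), and TPT1, whose messenger RNA is itself a target of mTOR, at 1.17 ± 0.17 (SE, adjusted p = 3.89e-07) and 1.11 ± 0.28 (SE, adjusted p = 0.0135). All 4 were thus higher in both fractions. The interaction test called 0 of the 45 by edgeR and 2 by DESeq2. By edgeR 4 had an unadjusted p under 0.05, as did 2701 of all 16226 tested genes.

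The 5 members that could not be tested had almost no counts. EIF3C had 0 to 4 counts per library, EIF3CL and EIF4A1 had 0, EIF4E1B, a germ-line cap-binding protein, had 0 to 5, and EIF4EBP3 had 0 to 14. EIF3C and EIF3CL are near-identical copies, and reads that match both may have been discarded in counting, so these values do not show that the genes were silent.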

How the data were processed

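Poly(A) RNA of the 12 sorted samples was sequenced as single-end reads of 100 bases from stranded libraries. The authors aligned the reads with HISAT2 to hg38 with an Ensembl annotation and counted them per gene with featureCounts, and tool versions, the strand setting of the counting and the treatment of reads that match several genes are not given in the sources used here. The deposited values are counts per gene, not normalized, at 23414935 to 38347050 per library. There were 0 per-sample columns left unused. Columns were matched to samples through the labels, and 1 table held all libraries.

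Genes were filtered with edgeR's filterByExpr (minimum count 10, total 15), scaled by TMM and tested with glmQLFit and glmQLFTest (edgeR 4.0.16, limma 3.58.1, R 4.3.3) within the libraries of each comparison, and for the interaction in all 12. P-values were adjusted by Benjamini-Hochberg over all tested genes, and members were read from these fits. The study used DESeq2 with an adjusted p of 0.05 and a 2-fold change; DESeq2 1.42.0 was an alternative here. CPM values use TMM scaling over all 12 libraries, so ratios of CPM differ slightly from the fold changes. Lengths and GC content came from GENCODE release 44 for all 65 members, promoters from RefSeq (GRCh38.p14). The scripts were tested on simulated data.

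Members and lists were chosen with earlier results of these data known. Named with every library's value were the EIF4EBP genes, each DEG under treatment in either fraction, and the highest and lowest estimate of each factor in GFP-positive cells; of the surrounding pathway list, the 4 DEGs with the largest change in GFP-positive cells; and members whose call a sentence explains. Over 13368 genes with at least 10 counts in every library, deviations from group means correlated between GFP-positive and GFP-negative libraries of 1 number. The r values were 0.453, 0.163 and 0.477 in control and 0.203, 0.282 and 0.548 in treated cells, so the numbers were taken to pair the sort fractions. Treated GFP-positive replicate 1 correlated more with treated GFP-negative replicate 2, at r = 0.283, so its partner is not settled. Between control and treated libraries r was -0.0388, 0.182 and 0.235 in GFP-positive and 0.0608, 0.253 and -0.0839 in GFP-negative cells, and they were not paired. Alternatives were DESeq2, RLE scaling, library size alone, no filter, all 12 libraries in 1 fit, a replicate block, removal of the GC trend and each library left out in turn.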

Additional observations from a re-analysis of the deposited data

Results flagged for a closer look

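EIF2D and EEF2 are listed because their response to cis-chlordane differed between the sort fractions when the culture was fitted as a replicate block. EIF2D, an initiator transfer RNA carrier that works without eIF2, had an interaction of -0.84 on the log2 scale, and its treated libraries lay below the controls in GFP-positive cells and above them in GFP-negative cells. EEF2, the ribosomal translocase, had an interaction of -0.62, with a rise in GFP-negative cells and overlapping groups in GFP-positive cells. Without the block neither passed in edgeR's test with the main settings. With it, 519 of all 16226 tested genes were called in the positive and 745 in the negative direction. Removing the GC trend changed the number of members that passed, with and without the block, as given below.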

How the results depend on the processing

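In treated against control GFP-positive cells the 4 lower members became 1 with library size alone and 0 to 4 with 1 library left out (0 without control GFP-positive replicate 2), and the 14 higher DEGs became 8 with the GC trend removed, also together with a replicate block. In GFP-negative cells the 1 lower member became 2 with library size alone, all 12 libraries in 1 fit or the GC trend removed, and 0 to 3 with 1 library left out. The 11 higher DEGs there became 7 with library size alone, 6 with the GC trend removed, with or without the block, and 6 to 12 with 1 library left out (6 without treated GFP-negative replicate 3). In control GFP-positive against GFP-negative cells the 2 higher members became 4 with all 12 libraries in 1 fit or the replicate block, and 2 to 4 with 1 library left out; the 21 lower became 33 with the block and the GC trend removed together. With the block and the GC trend removed together, 4400 of all 14954 tested genes were called lower. The 5 lower DEGs became 3 with RLE scaling, no filter or the GC trend removed, 2 with library size alone or all 12 libraries, and 1 to 7 with 1 library left out. The median of the members, -0.43, became -0.39 with library size alone or the block with the GC trend removed, -0.40 with no filter or the GC trend removed, -0.33 with all 12 libraries and -0.46 to -0.30 with 1 library left out. Relative to all genes the median of -0.42 became -0.32 with no filter, -0.38 with the GC trend removed, with or without the block, and -0.47 to -0.28 with 1 library left out. For the interaction, the 0 lower members became 1 with DESeq2, 2 with the replicate block, 1 with the GC trend removed and 1 with both, and the median of 0.07 became 0.33 with library size alone. EIF4EBP2 in GFP-positive cells turned from 0.15 to -0.026 with the GC trend removed and to -0.022 with the block as well. The causes were not tested, except that leaving out a library leaves fewer samples. Of the other values of named genes, 488 kept their direction and side of the threshold, 18 lost the call (9 for EIF5, 5 for EIF3J and 2 for EIF3M in GFP-negative cells, and 2 for EEF1A1 in GFP-positive cells) and 2 gained it (EIF4E3 in GFP-negative cells). The paired fit changed no other call among these counts by over 1.5 times. Genes under about 100 counts per library, such as EEF1D, EIF5A2 and EEF1AKMT3, are limited by counting.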
